A study of Mus musculus with 12 samples.

Results

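The 9 genes described here encode chains of laminin (Lama1, Lama3, Lama4, Lama5, Lamb1, Lamb3 and Lamc1) and the 2 nidogens (Nid1 and Nid2). They were chosen by gene symbol from a table of 24421 symbols, and all 9 passed the filter on low counts, as did 15246 genes in all. RNA was sequenced from whole lungs of wild-type CD-1 mouse fetuses, taken at 12.5 days of gestation and grown in Matrigel at an air-liquid interface, with 4 libraries in each of 3 groups. In the compression group, a 20% solution of the polymer PEG-HCC was hardened around the lungs with a two-photon laser at Day 0, the day after isolation, and the lungs were collected 2 days later (Day 2). Control lungs received as much of the solution without laser crosslinking and were also collected at Day 2. Day 0 lungs were collected at the start of that period, and the sample records list the 20% solution for them as well. All 3 groups are explants held in Matrigel, an extract of a mouse tumour basement membrane that is itself made largely of laminin, type IV collagen and nidogen protein; the RNA counts do not measure those proteins. The first question is whether the laminin and nidogen transcripts differed between compressed and control lungs, and the second is how they changed over the 2 days of culture in each.

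Laminins are the proteins from which a basement membrane is built, the sheet of matrix that underlies every epithelium and surrounds blood vessels, nerves and muscle. Each laminin is a trimer of 1 alpha, 1 beta and 1 gamma chain, and the alpha chain carries the domains that bind cell receptors such as integrins and dystroglycan. Nidogens bridge the laminin network to the type IV collagen network. In the developing lung the epithelial tubes branch while wrapped in such a sheet. The alpha 1 chain (Lama1) is known as an early embryonic chain, alpha 5 (Lama5) as the broad chain of later epithelia, alpha 4 (Lama4) as a chain of vessels and mesenchyme, and alpha 3 (Lama3) as the partner of beta 3 (Lamb3) in the laminin that anchors hemidesmosomes.

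Total counts were 25680019 to 31739019 per library under compression, 15452117 to 30805341 in controls and 13979871 to 33249761 at Day 0. The lung markers Nkx2-1, Tbx4, Tbx5, Foxf1, Wnt2 and Sftpc were present in every library, the lowest count being 816 for Sftpc. Control replicate 4 also held liver transcripts, with 638 CPM of Alb and 745 CPM of Afp, where CPM are counts divided by the TMM-scaled library total, on the usual CPM scale. The 6 liver markers together reached 1493 CPM in that library and at most 16.9 CPM in any other. The descriptions of compression replicates 2 and 3 share a number, and their counts differed less (a mean chi-square of 4.07 per gene) than those of the other pairs within groups (7.48 or more). They were counted as 2 libraries, and results with the pair summed and with control replicate 4 left out are given beside the counts of called genes. Whether libraries of a group come from separate fetuses is not given, so p-values measure the spread between libraries, which may be technical. Each sample is a whole lung, so fewer cells of a type and less RNA per cell cannot be told apart.

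The bases upstream of transcript starts, from the RefSeq table of GRCm38.p6, were searched for 4 of the 9 genes: Lama5, Lamb1, Lamb3 and Nid1. Lama3 was left out of this step, so its absence here does not mean that RefSeq lacks it. The 250 bases before the start are printed for Lamb3 and Lama5, which were higher in Day 2 control lungs than at Day 0, and for Lamb1, whose level stayed close to its Day 0 value. Lamb3 has 2 annotated starts, both downstream of the start of the longest GENCODE model. The second Lamb3 window begins at the last base of the first, so almost all of it lies downstream of the first start. The Lamb1 and Nid1 starts also lie downstream of the GENCODE gene starts, and their windows run past those starts. Capitals mark matches to 4 searched motifs, on either strand. The motifs were the GC box GGGCGG, the TATA box TATAAA, the AP-1 site TGANTCA and the TEAD site GGAATG; a match on the other strand appears as the reverse complement. No match overlapped another.
Lamb3, first start, chr1:193301744-193301993, plus strand: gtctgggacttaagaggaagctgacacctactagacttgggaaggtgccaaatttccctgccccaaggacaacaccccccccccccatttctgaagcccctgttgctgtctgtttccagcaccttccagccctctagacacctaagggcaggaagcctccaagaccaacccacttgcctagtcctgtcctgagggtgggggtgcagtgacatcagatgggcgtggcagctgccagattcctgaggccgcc
Lamb3, second start, chr1:193301993-193302242, plus strand: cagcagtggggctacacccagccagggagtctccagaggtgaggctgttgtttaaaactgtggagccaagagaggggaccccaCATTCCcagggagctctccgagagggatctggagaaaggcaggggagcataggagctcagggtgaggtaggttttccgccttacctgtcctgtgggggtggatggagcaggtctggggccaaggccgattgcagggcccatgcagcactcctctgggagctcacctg
Lama5, chr2:180225860-180226109, minus strand: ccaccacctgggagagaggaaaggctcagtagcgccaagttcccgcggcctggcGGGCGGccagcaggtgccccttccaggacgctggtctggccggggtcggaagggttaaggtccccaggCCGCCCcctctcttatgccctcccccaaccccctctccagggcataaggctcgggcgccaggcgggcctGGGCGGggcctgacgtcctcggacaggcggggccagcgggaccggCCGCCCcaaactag
Lamb1, chr12:31265043-31265292, plus strand: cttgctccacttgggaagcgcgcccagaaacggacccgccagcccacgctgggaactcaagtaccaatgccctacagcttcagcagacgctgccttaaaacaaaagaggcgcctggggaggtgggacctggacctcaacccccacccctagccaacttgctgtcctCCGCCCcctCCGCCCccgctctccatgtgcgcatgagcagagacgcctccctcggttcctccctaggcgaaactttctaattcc

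The Lama5 window held 4 GC boxes and 72.4% G and C, and the Lamb1 window held 2 GC boxes and 62% G and C. The first Lamb3 window held none of the 4 motifs at 58.8% G and C, and the second held 1 TEAD match at 61.2%. The Nid1 window held 1 GC box and 1 TEAD match. Of 32851 windows of the same length in the table, 32.7% held a GC box, 12.4% a TATA box, 6.75% an AP-1 match and 12.6% a TEAD match. These matches describe letters in a window and show no binding.

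In the GENCODE annotation of GRCm38 (mm10) the 9 genes lie on 8 chromosomes. Lama1 is at chr17:67697259-67822647 on the plus strand, Lama3 on chromosome 18, Lama4 at chr10:38965515-39110188 (plus) and Lama5 at chr2:180176373-180225859 (minus). Lamb1 is at chr12:31265234-31329644 (plus), and Lamb3 and Lamc1 share chromosome 1, at chr1:193207699-193343878 (plus) and chr1:153218922-153332786 (minus). Nid1 is at chr13:13437551-13512269 (plus) and Nid2 at chr14:19751265-19811787 (plus). None of them shares exon bases with another gene on the same strand. On the opposite strand, 8.45% of the exon bases of Nid2 overlap Rtraf, 2.06% of those of Nid1 overlap Gm48682 and 1.83% of those of Lama3 overlap Gm29200. The strand setting of the counting is not given, so reads in those stretches cannot be told apart.

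Per kilobase of exon, Lamc1 and Lamb1, the gamma and beta chains found in most laminins, were the most abundant of the 9 transcripts in all 3 groups. Levels between genes were compared as CPM per kilobase of the exons of protein-coding GENCODE transcripts. Lamc1 averaged 111 ± 8.52 CPM per kilobase under compression, 118 ± 4.17 in controls and 105 ± 17.9 at Day 0 (SD, n = 4 each). Lamb1 averaged 84.3 ± 0.73 under compression, 91.4 ± 3.59 in controls and 89.3 ± 8.76 at Day 0. The ranges of the libraries of these 2 genes did not overlap in the Day 2 groups, but did at Day 0.

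Nid1 came next in each group, with 48.1 ± 1.39 CPM per kilobase under compression, 48.4 ± 2.52 in controls and 53.8 ± 9.62 at Day 0. Lama4 followed, with 41.7 ± 3.57 under compression, 40.5 ± 2.56 in controls and 47.2 ± 7.75 at Day 0. Below these, the order differed between the days. At Day 0, Nid2 (43.3 ± 5.17) stood above Lama5 (24.8 ± 5.50), which stood above Lamb3 (9.77 ± 2.07), with no overlap of the library ranges between Nid2 and Lama5 or between Lama5 and Lamb3. In controls Lama5 (36.6 ± 1.81) overlapped Lama4 and stood above Nid2 (27.4 ± 1.44), which overlapped Lamb3 (25.5 ± 2.78). Under compression, Lama5 (31.8 ± 6.31), Lamb3 (27.4 ± 3.41) and Nid2 (26.6 ± 1.46) each overlapped their neighbour in the order. Lama3 and Lama1 were lowest in every group. Lama3 had 7.46 ± 1.20 CPM per kilobase under compression, 7.48 ± 1.63 in controls and 5.43 ± 2.70 at Day 0. Lama1 had 0.978 ± 0.242 under compression, 1.27 ± 0.066 in controls and 4.75 ± 1.07 at Day 0. The ranges of these 2 genes overlapped at Day 0 and were apart in the Day 2 groups. With the exons of all annotated transcripts as the length, an alternative added after the data were seen, the Day 0 level of Lama4 was 23.7, below those of Nid2 (40.8) and Lama5 (24.8). Lamb1, at 52.6, still came after Lamc1 and before Nid1.

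**Figure D1:**
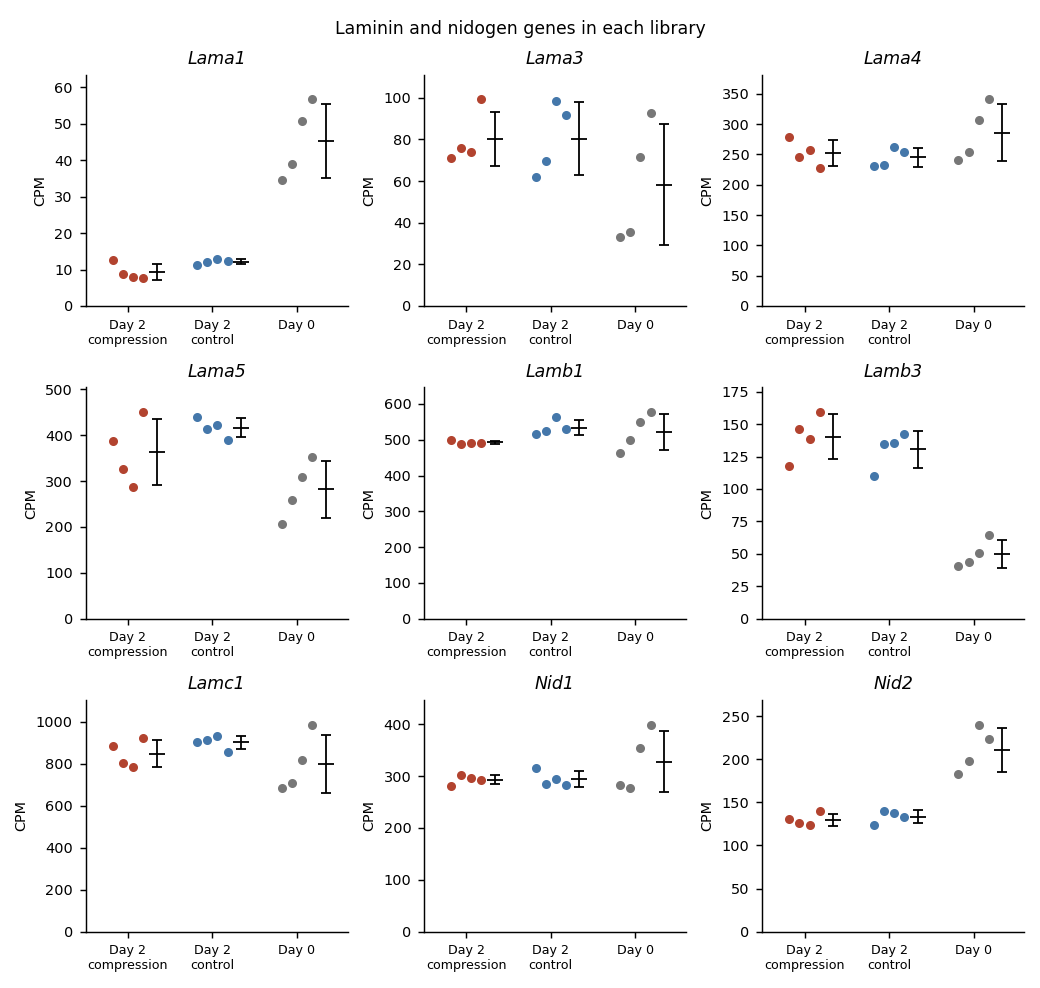
CPM (y axis, linear, from 0) of each of the 9 genes in every library, with 4 points for compression, control and Day 0 and a bar for the mean ± SD. Lama1 and Nid2 lie lower, and Lamb3 higher, in all 8 Day 2 libraries than in the 4 Day 0 libraries, while compression and control overlap in all genes but Lamb1.

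Compression and control lungs did not differ in any of the 9 genes at an adjusted p under 0.05 (edgeR quasi-likelihood test, Benjamini-Hochberg over 15246 genes). The nearest to the threshold was Lama1, lower under compression, and the largest fold changes after it were those of Lama5 and Lamb1, also lower, and Lamb3, higher. Over all genes the same test called 0 genes (0%), while 1839 (12.1%) had an unadjusted p under 0.05. Of the 9 genes, 1 (Lama1) had such an unadjusted p, in the direction in which 5.33% of all genes had one. The median log2 fold change of the 9 genes was -0.04, against 0.0039 over all genes. The DESeq2 Wald test called 69 genes and 0 of the 9, and limma-voom with quality weights, which lowers the weight of libraries that fit poorly, called 1958 genes and 2 of the 9.

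Lama1 stood at 12.7, 8.85, 7.91 and 7.80 CPM in compression replicates 1 to 4, against 11.3, 11.97, 12.8 and 12.4 CPM in control replicates 1 to 4. Of the compression libraries, 3 were below every control, and compression replicate 1 lay within the control range. The log2 fold change was -0.38 ± 0.17 (SE), with a 95% interval from -0.76 to -0.0070, an unadjusted p of 0.0464 and an adjusted p of 0.411. Leaving out compression replicate 1 gave -0.57 and an adjusted p of 0.109, the lowest adjusted p when 1 library was left out; the highest, 0.692, came without compression replicate 2. With limma-voom the value was -0.51 (adjusted p = 0.0348).

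Lamb1 had 499, 489, 491 and 492 CPM under compression, against 516, 525, 564 and 530 CPM in controls. All 4 compression libraries were below all 4 controls, and they differed among themselves by less than 10 CPM. This was the only 1 of the 9 genes whose groups did not overlap, and 2.7% of all genes tested had compression libraries all below the controls. The log2 fold change was -0.12 ± 0.07 (adjusted p = 0.499).

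Lama5 had 388, 326, 286 and 450 CPM under compression, against 439, 413, 423 and 390 CPM in controls. The compression libraries lay on both sides of the control range, which they spanned. The log2 fold change was -0.20 ± 0.15 (adjusted p = 0.594), and limma-voom gave -0.36 (adjusted p = 0.0425). Without compression replicate 3 the edgeR value was -0.10, and without compression replicate 4 it was -0.32.

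Lamb3 had 117, 146, 138 and 159 CPM under compression, against 110, 134, 135 and 142 CPM in controls, with overlapping groups and a log2 fold change of 0.11 ± 0.13 (adjusted p = 0.754). The intervals of the remaining genes bound the differences that these libraries allow. For Nid2 the 95% interval ran from -0.21 to 0.13, for Nid1 from -0.22 to 0.20, for Lama4 from -0.18 to 0.26 and for Lamc1 from -0.31 to 0.13 on the log2 scale. For Lama3, whose libraries varied most among these, it ran from -0.66 to 0.65.

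**Figure D2:**
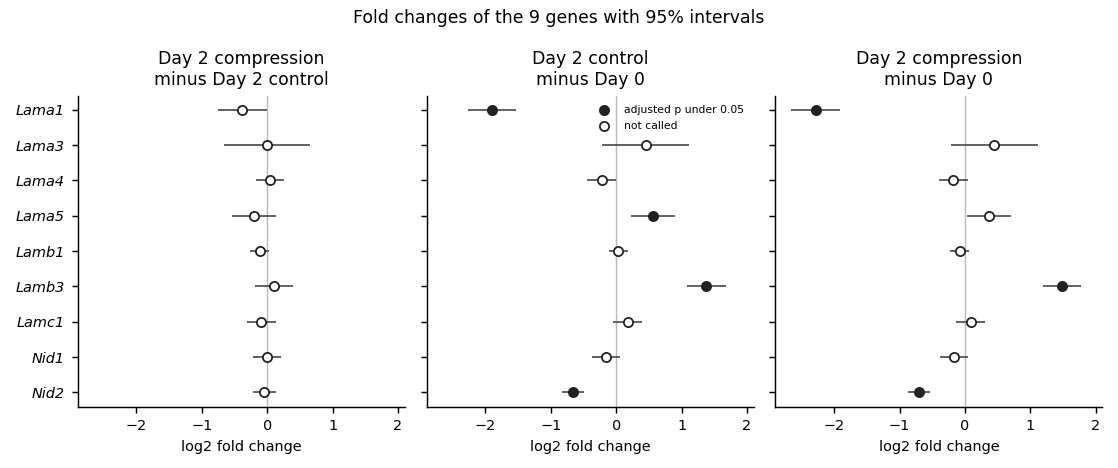
log2 fold change (x axis) with its 95% interval for each of the 9 genes in 3 comparisons, from edgeR, with filled points for an adjusted p under 0.05. No point is filled for compression minus control; Lama1, Lamb3 and Nid2 are filled in both comparisons with Day 0, and Lama5 in control minus Day 0.

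Over the 2 days of control culture, Lama1 fell and Lamb3 rose by more than any other of the 9 genes. Lama1 averaged 12.1 ± 0.63 CPM in controls and 45.2 ± 10.2 CPM at Day 0, and Lamb3 averaged 130 ± 14.3 CPM in controls and 50.1 ± 10.6 CPM at Day 0 (SD, n = 4 each). Lama5 also rose and Nid2 fell, by smaller factors, while Lama3, Lama4, Lamb1, Lamc1 and Nid1 did not pass the threshold. In all, 2 of the 9 were higher and 2 lower at an adjusted p under 0.05 (edgeR), and over all genes 22.6% were higher and 17.6% lower, together 40.2%. The 4 of 9 called is therefore close to the share of all genes called, and the direction was mixed: the median log2 fold change of the 9 genes was 0.03, against 0.02 over all genes. The groups did not overlap for the same 4 genes, as they did not for 37.9% of all genes.

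The same Day 0 libraries serve as the baseline of the compression lungs, so the comparisons with Day 0 are not independent. Between compression and Day 0, 1 of the 9 genes (Lamb3) was higher and 2 (Lama1 and Nid2) were lower. Over all genes 26.6% were higher and 22.5% lower, together 49.1%, a larger share than the 3 of 9. Their groups did not overlap, as they did not for 43% of all genes. The median log2 fold change of the 9 genes was -0.08, against 0.02 over all genes. Another setting, added after the data were seen, summed compression replicates 2 and 3 and left out control replicate 4. The counts of called genes were also 3 of 9 for compression and 4 of 9 for control against Day 0. Between compression and control the count was 0 of 9. Of all 15326 genes tested in that setting, 6554, 5257 and 10 were called in these comparisons, in that order. Leaving out a Day 0 library moved the count of the 9 genes for compression most. Without Day 0 replicate 1 it was 6, adding Lama4, Lamb1 and Nid1 as lower, and without Day 0 replicate 4 it was 5, adding Lama3 and Lama5 as higher. For control against Day 0 it was 6 without Day 0 replicate 4, adding Lama3 and Lamc1 as higher. It was 5 without Day 0 replicate 1, adding Lama4 as lower. Calls over all genes moved too when any 1 library was left out. They ranged from 6555 to 7634 for compression against Day 0, beside 7489 with all libraries. For control against Day 0 they ranged from 5438 to 6495, beside 6131 with all libraries.

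Lama1, the early alpha chain, had 12.7, 8.85, 7.91 and 7.80 CPM under compression, 11.3 to 12.8 CPM in controls, and 34.7, 38.9, 50.6 and 56.7 CPM in Day 0 replicates 1 to 4. Every Day 2 library was below every Day 0 library. It was 3.74-fold lower in controls than at Day 0 (log2 fold change -1.90 ± 0.17, adjusted p = 3.16e-06) and 4.88-fold lower under compression than at Day 0 (-2.29 ± 0.17, adjusted p = 6.25e-07). The call held without any 1 library, with log2 fold changes from -2.04 to -1.79 in controls. The smallest count behind these values was 194 reads, in control replicate 4.

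Lama5, the alpha chain of later epithelia, had 207, 259, 309 and 352 CPM in Day 0 replicates 1 to 4, below all 4 controls (390 to 439 CPM). The compression libraries (286 to 450 CPM) overlapped the Day 0 range. The log2 fold change was 0.56 ± 0.16 in controls against Day 0, 1.48-fold (adjusted p = 0.0115). In compression against Day 0 it was 0.36 ± 0.16 (adjusted p = 0.0693), 0.44 without compression replicate 3 (adjusted p = 0.0379) and 0.21 without Day 0 replicate 1, where it was not called. That control passed the threshold and compression did not is no test of a difference between them, and the direct comparison gave the adjusted p of 0.594 above.

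Lama3 and Lama4 did not pass the threshold against Day 0 in either group with edgeR. Lama3 had 71.2, 75.8, 74.2 and 99.3 CPM under compression, 61.7, 69.7, 98.3 and 91.9 CPM in controls, and 33.1, 35.7, 71.8 and 92.9 CPM at Day 0. The Day 0 libraries were split, with replicates 1 and 2 below every Day 2 library and replicates 3 and 4 within the Day 2 range. The log2 fold change was 0.45 ± 0.30 in each comparison with Day 0 (adjusted p = 0.240 for compression and 0.260 for control). It was 0.75 for compression and 0.76 for control without Day 0 replicate 4. Without Day 0 replicate 1 it was 0.23 in each. Lama4 ranged from 227 to 279 CPM under compression, from 232 to 262 CPM in controls and from 241 to 341 CPM at Day 0, with overlapping groups. Its log2 fold change was -0.18 ± 0.10 for compression (adjusted p = 0.160) and -0.22 ± 0.10 for control (adjusted p = 0.0986). limma-voom called it lower than at Day 0 in both groups, at -0.23 (adjusted p = 0.0193) for compression and -0.23 (adjusted p = 0.0454) for control.

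Among the beta chains, Lamb3 had 117, 146, 138 and 159 CPM under compression and 110, 134, 135 and 142 CPM in controls, against 40.9, 44.1, 50.6 and 64.8 CPM in Day 0 replicates 1 to 4. All 8 Day 2 libraries were above all 4 Day 0 libraries. It was 2.79-fold higher under compression than at Day 0 (log2 fold change 1.48 ± 0.14, adjusted p = 2.96e-06) and 2.59-fold higher in controls than at Day 0 (1.38 ± 0.14, adjusted p = 7.57e-06). Lamb1 showed no such change, with 462, 498, 549 and 577 CPM at Day 0, a range that held all Day 2 libraries. Its log2 fold change was -0.08 ± 0.07 for compression (adjusted p = 0.341) and 0.03 ± 0.07 for control (adjusted p = 0.732) against Day 0. The gamma chain Lamc1 ranged from 785 to 920 CPM under compression, from 857 to 932 CPM in controls and from 683 to 983 CPM at Day 0, with log2 fold changes against Day 0 of 0.09 ± 0.10 for compression (adjusted p = 0.499) and 0.18 ± 0.10 for control (adjusted p = 0.186).

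The nidogens differed from each other. Nid2 had 130, 126, 123 and 139 CPM under compression and 124, 140, 138 and 132 CPM in controls, against 183, 199, 240 and 223 CPM in Day 0 replicates 1 to 4. All 8 Day 2 libraries were below all 4 Day 0 libraries. Nid2 was 1.63-fold lower under compression than at Day 0 (log2 fold change -0.70 ± 0.08, adjusted p = 1.08e-05) and 1.58-fold lower in controls than at Day 0 (-0.66 ± 0.08, adjusted p = 2.68e-05). Nid1 ranged from 282 to 302 CPM under compression, from 284 to 316 CPM in controls and from 276 to 398 CPM at Day 0. Its groups overlapped, and its log2 fold change was -0.16 ± 0.10 in both comparisons (adjusted p = 0.186 for compression and 0.231 for control). The 2 nidogens together came to 74.7 ± 1.57 CPM per kilobase under compression, 75.7 ± 1.59 in controls and 97.1 ± 14.1 at Day 0, with every Day 2 library below every Day 0 library.

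At Day 0 the spread had a shape shared by all 9 genes: replicates 3 and 4 held the 2 highest of the 4 values in each. This order was seen in 28.0% of all genes tested, and in 38.9% of the 3767 tested genes whose exons are at least as long as the shortest of the 9 (4876 bases). The 9 genes are read in the same libraries, so this is 1 pattern and not 9 independent ones. The spread of Lama3 at Day 0, from 33.1 to 92.9 CPM, was the widest in proportion.

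**Figure D3:**
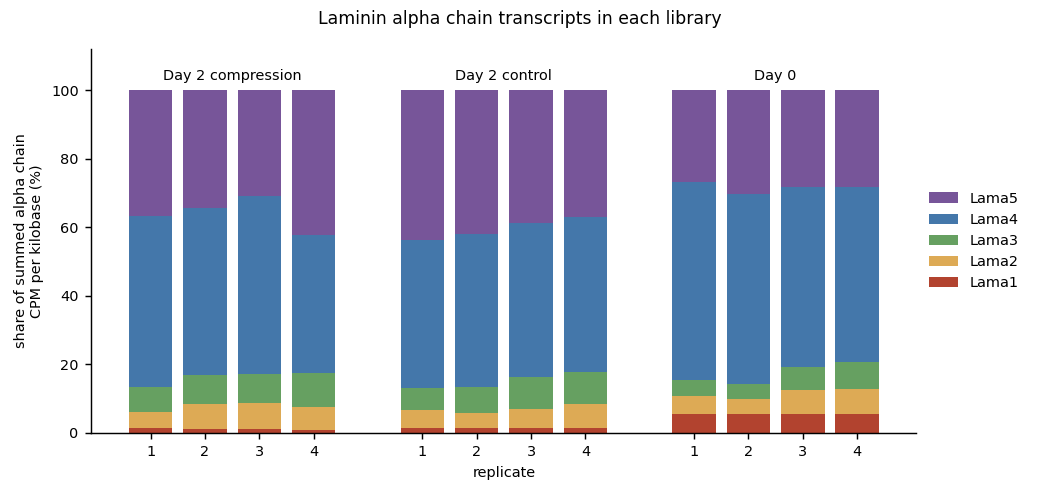
Share (%, stacked from 0 to 100) of each of the 5 laminin alpha chain transcripts, per kilobase, in each library, by group and replicate. The Lama1 share is 0.877 to 1.44% under compression, 1.34 to 1.46% in controls and 5.32 to 5.50% at Day 0, and Lama4 and Lama5 fill most of every bar.

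As shares of the 5 alpha chain transcripts per kilobase (the 4 above and Lama2, the chain known for muscle and nerve), Lama1 made up 1.11 ± 0.24% under compression, 1.40 ± 0.048% in controls and 5.41 ± 0.071% at Day 0 (SD, n = 4 each). In contrast to its CPM, the Lama1 share varied little among the Day 0 libraries. Lama5 made up 36.1 ± 4.83% under compression, 40.3 ± 3.05% in controls and 28.3 ± 1.47% at Day 0. Its Day 2 libraries were all above the Day 0 libraries, from 30.8% upward against at most 30.2%. Lama4 made up 47.8 ± 5.18% under compression, 44.6 ± 0.93% in controls and 54.4 ± 3.08% at Day 0, where compression and Day 0 overlapped. Lama3 made up 8.50% under compression, 8.19% in controls and 5.92% at Day 0, and Lama2 made up 6.56% under compression, 5.52% in controls and 5.97% at Day 0. The library ranges of both overlapped between groups. The sum over the 5 chains was 87.7 ± 6.12 CPM per kilobase under compression, 90.9 ± 4.49 in controls and 87.6 ± 19.1 at Day 0, with overlapping ranges. The shares depend on the lengths used, and that of Lama4 most.

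Ratios of 2 genes within a library do not depend on library scaling. Of 18 tests (6 ratios in 3 comparisons), 8 gave 0.0286 (two-sided), the smallest p of an exact permutation test over 4 and 4 libraries. Their adjusted p was 0.0643, so none passed the threshold after adjustment. That smallest p can pass only where most of the 18 tests reach it, so this outcome does not show an absence of change. The log2 ratio of Lama1 to Lama5 counts was -5.29 ± 0.39 under compression, -5.10 ± 0.13 in controls and -2.64 ± 0.067 at Day 0. The log2 ratio of Lama4 to Lama5 was -0.51 ± 0.35 under compression, -0.77 ± 0.14 in controls and 0.032 ± 0.12 at Day 0. Both ratios set an alpha chain against the alpha 5 chain, and both were lower at Day 2. The log2 ratio of Lamb3 to Lamb1 was -1.82 ± 0.19 under compression, -2.04 ± 0.15 in controls and -3.40 ± 0.16 at Day 0. That of Nid2 to Nid1 was -1.18 ± 0.10 under compression, -1.14 ± 0.14 in controls and -0.63 ± 0.15 at Day 0. For these 4 ratios, no Day 2 library of either group overlapped Day 0. The ratio of Lamc1 to Lamb1 was higher than at Day 0 by 0.18 under compression and 0.15 in controls on the log2 scale, with overlapping groups (exact permutation p = 0.0857 each, adjusted 0.154). The ratio of Lama3 to Lama5 also overlapped, and between compression and control all 6 ratios did (exact permutation p from 0.143 to 0.771).

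**Figure D4:**
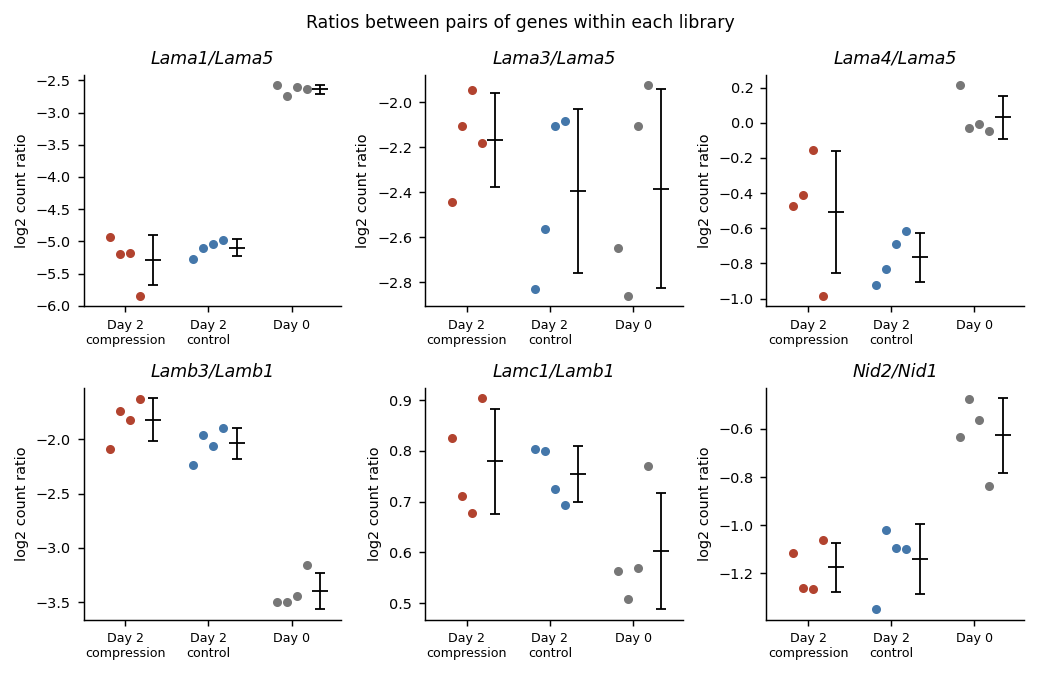
log2 ratio of counts (y axis, scale set for each ratio) for 6 pairs of the genes in each library, with mean ± SD. Lama1/Lama5, Lama4/Lama5 and Nid2/Nid1 lie lower and Lamb3/Lamb1 higher in all Day 2 libraries than at Day 0, and compression and control overlap in every panel.

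The nearest patterns were those with the smallest root mean square difference of log2 CPM over the 12 libraries, each gene centred on its own mean. Predicted, clone and Rik gene symbols were left out of this search. Lama1 was nearest to Col6a4 (0.233) and Nova2 (0.242), and Lama5 to Celsr1 (0.120) and Tnk1 (0.125). Lamb3 was nearest to Mapkapk3 (0.106) and Tjp3 (0.116), and Nid2 to Plekhg2 (0.0639) and Rnf122 (0.0715). Among the 9 genes themselves the nearest to Lama1 was Nid2, at 0.702, and Lama4 and Nid1 were nearest to each other, at 0.109. The 12 points share libraries and the day of sampling, and the distances are a description.

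Levels of cell type markers moved with day as well. Against Day 0, 22.6% of all genes were higher and 17.6% lower in controls, and 26.6% higher and 22.5% lower under compression. The lists are short, and counts such as 1 of 5 lie near these shares. Summed over 8 endothelial markers, the level was 75.2 to 97.2 CPM under compression, 62.2 to 107 CPM in controls and 308 to 504 CPM at Day 0, and all 8 genes were lower than at Day 0 in both groups. Pericyte markers summed to 98.1 to 116 CPM under compression, 86.3 to 119 CPM in controls and 175 to 291 CPM at Day 0, with 2 of 3 lower in both. Epithelial markers summed to 1382 to 1502 CPM under compression, 1363 to 1523 CPM in controls and 879 to 977 CPM at Day 0, with 5 of 6 higher in both. Alveolar type 1 markers summed to 137 to 235 CPM under compression, 161 to 222 CPM in controls and 37.9 to 50.5 CPM at Day 0, with 3 of 4 higher and 1 lower in both. The 6 mesenchymal markers ranged from 2003 to 2558 CPM under compression, 1795 to 2410 CPM in controls and 2146 to 2715 CPM at Day 0, with 4 lower in both. Mesothelial markers summed to 86.2 to 96.7 CPM under compression, 86.6 to 137 CPM in controls and 56.2 to 80.4 CPM at Day 0, with 2 of 5 higher under compression and 3 of 5 higher in controls. Leukocyte markers summed to 156 to 181 CPM under compression, 109 to 174 CPM in controls and 91.9 to 110 CPM at Day 0, with 4 of 5 higher under compression and 1 of 5 higher in controls. No gene of these lists sat at 0 in all libraries of a group. Their part in the changes of Lama1, Lama5, Lamb3 and Nid2 was not tested.

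Most of the other basement membrane genes that changed over the 2 days rose. Of 45 such genes in 6 lists, 20 were higher and 3 lower in controls than at Day 0 (edgeR, adjusted p under 0.05), with a median log2 fold change of 0.24 against 0.02 over all genes. Over all genes 22.6% were higher and 17.6% lower in that comparison. In compression against Day 0, 19 were higher and 6 lower, with a median of 0.26 against 0.02, where 26.6% of all genes were higher and 22.5% lower. With compression replicates 2 and 3 summed and control replicate 4 left out, 18 of 45 were higher and 3 lower in controls. Under compression 18 were higher and 5 lower, both against Day 0. Of all 15326 genes tested in that setting, 2832 were higher and 2425 lower in controls, and 3542 higher and 3012 lower under compression. Between compression and control 0 of 45 were called by edgeR and by DESeq2, and 0 by edgeR with that setting. In that comparison 3 of 45 were higher and 1 lower at an unadjusted p under 0.05, as were 6.73% and 5.33% of all genes. There limma-voom called 7 of the 45, 3 higher and 4 lower. Of all 15246 genes, limma-voom called 1139 higher and 819 lower. The lists were drawn up with earlier results of these data known.

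Of 3 other laminin chains, 1 was higher in both groups than at Day 0, where 26.6% of all genes were higher under compression and 22.6% in controls. Lamb2, a beta chain best known from the neuromuscular junction and the kidney, averaged 214 ± 26.6 CPM under compression, 211 ± 21.2 CPM in controls and 158 ± 15.8 CPM at Day 0 (log2 fold change 0.42 ± 0.098 for control, adjusted p = 0.00393). Lama2 and Lamc3 did not pass the threshold. Summed per kilobase, the 3 beta chain transcripts came to 150 ± 7.37 under compression, 154 ± 9.20 in controls and 127 ± 13.3 at Day 0. The Day 2 and Day 0 ranges nearly touched, with at least 143.6 under compression and 143.3 in controls against at most 142.1 at Day 0. These sums depend on the lengths used.

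Of the 6 type IV collagen genes, 4 rose in controls against Day 0, where 22.6% of all genes did. Col4a3 averaged 19.5 CPM in controls and 4.33 CPM at Day 0 (log2 fold change 2.17), and Col4a4 averaged 67.3 CPM in controls and 15.5 CPM at Day 0 (2.11). These chains join Col4a5 (0.97) in the collagen network of mature lung and kidney basement membranes, and Col4a6 rose by 0.76. Under compression these 4 and Col4a1 rose against Day 0, where 26.6% of all genes did, and Col4a1 rose by 0.36 ± 0.13 (adjusted p = 0.0282). Among 4 proteoglycan genes, Col18a1 averaged 511 CPM in controls and 338 CPM at Day 0 (0.60, adjusted p = 0.0448) and Col15a1 averaged 21.7 CPM in controls and 38.7 CPM at Day 0 (-0.85, adjusted p = 0.00819). The call of Col18a1 was lost in controls without Day 0 replicate 1 or 2, control replicate 3 or 4, or compression replicate 2, 3 or 4, with adjusted p of 0.0585 to 0.138. It was also lost with the scaling of DESeq2, without a filter on low counts, with only the 8 libraries compared and with compression replicates 2 and 3 summed (adjusted p of 0.0510 to 0.0859), and with control replicate 4 left out as well as that sum (0.160).

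Of 9 laminin receptor genes, 6 rose and 0 fell in each comparison with Day 0, where 26.6% of all genes were higher and 22.5% lower under compression, and 22.6% higher and 17.6% lower in controls. Bcam, a receptor for the alpha 5 chain, averaged 386 CPM under compression, 347 CPM in controls and 121 CPM at Day 0 (log2 fold change 1.52 for control, adjusted p = 2.38e-06). Dag1, which encodes dystroglycan, averaged 599 CPM under compression, 623 CPM in controls and 361 CPM at Day 0 (0.79 for control). The syndecan Sdc4 averaged 166 CPM under compression, 141 CPM in controls and 72.3 CPM at Day 0 (0.96 for control). The integrin subunit Itga3 averaged 135 CPM under compression, 138 CPM in controls and 81.7 CPM at Day 0 (0.76 for control). The integrin subunits Itga6 and Itgb1 had log2 fold changes of -0.015 and 0.065 in controls and did not pass the threshold.

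Among 15 other proteins of basement membranes and the laminin network, 5 rose and 1 fell in controls, and 4 rose and 4 fell under compression, against Day 0. Over all genes 22.6% were higher and 17.6% lower in controls, and 26.6% higher and 22.5% lower under compression. The counts under compression were close to those shares. Tinagl1 averaged 47.5 CPM under compression, 35.6 CPM in controls and 12.01 CPM at Day 0 (log2 fold change 1.58 for control). Sparc, a collagen-binding matrix protein, rose by 0.69 and the integrin ligand Npnt by 0.94, and Pxdn, the peroxidase that crosslinks type IV collagen, fell by 0.52 in controls. Of 8 genes that glycosylate dystroglycan for laminin binding, 3 rose and 1 fell in controls, beside the 22.6% and 17.6% of all genes. Pomk averaged 28.1 CPM in controls and 19.6 CPM at Day 0 (0.52), and Ispd averaged 5.29 CPM in controls and 8.06 CPM at Day 0 (-0.62). The log2 fold changes of Pomt1 and Pomt2 in controls were 0.38 and 0.20. The call of Pomt2 (adjusted p = 0.0385) was lost in 10 of the 12 fits that left out 1 library, with adjusted p of up to 0.179. It was also lost with the scaling of DESeq2, without a filter, with only the 8 libraries compared and with the 2 compression libraries summed (adjusted p of 0.0551 to 0.0761), and with control replicate 4 left out as well as that sum (0.135). Under compression Pomk and Pomt1 rose and Ispd fell against Day 0.

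**Figure D5:**
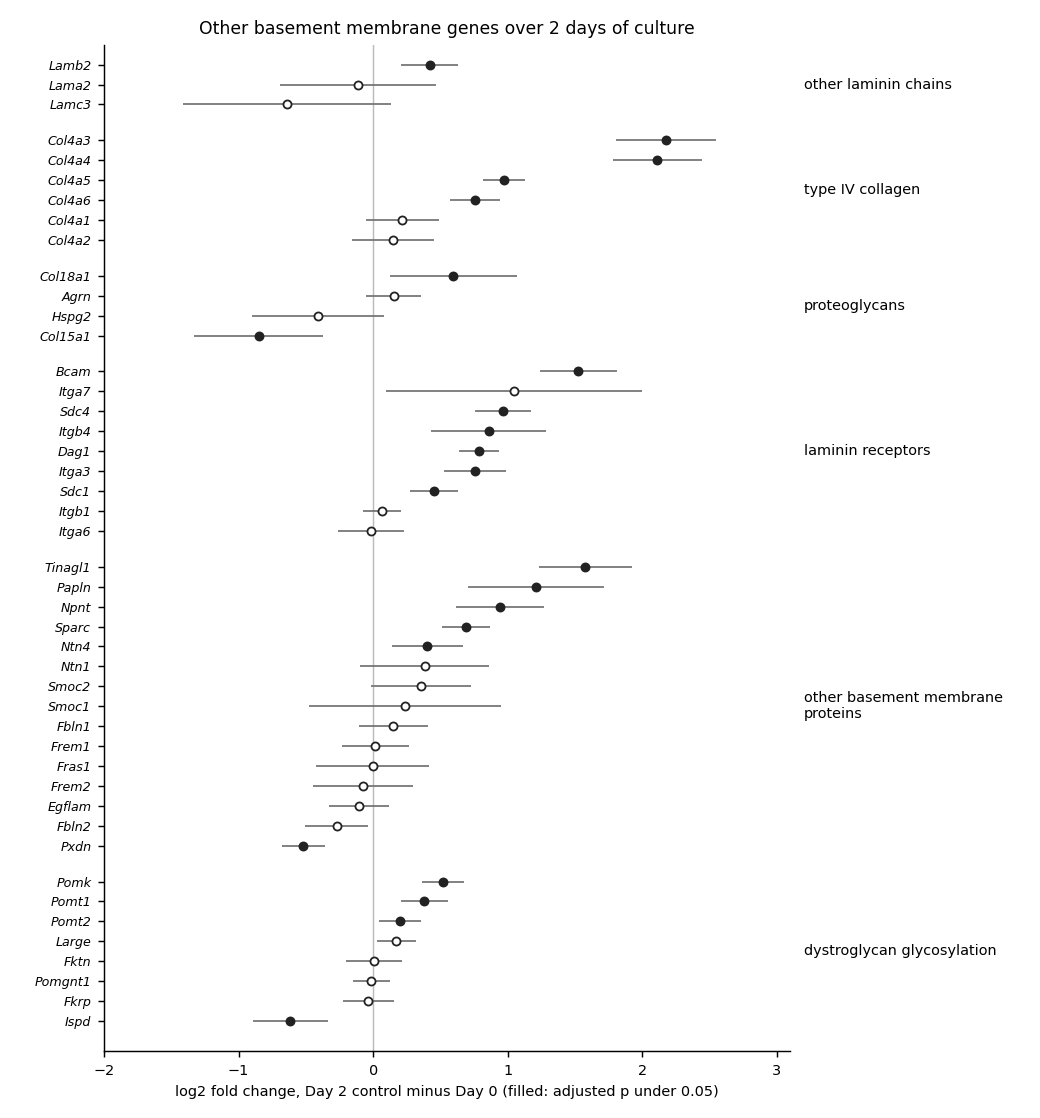
log2 fold change with 95% interval (x axis) of 45 other basement membrane genes, grouped by list, for control at Day 2 minus Day 0, with filled points for an adjusted p under 0.05. Of the filled points, 20 lie above 0 and 3, Col15a1, Pxdn and Ispd, lie below.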

How the data were processed

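The values are unnormalized whole-number counts, 1 column a library, in a table the authors deposited with 24421 gene symbols, 4505 of them without a count. Per the submitters' processing notes, fastp, STAR and mm10 were used; the sources used here do not give versions, annotation, counting step or strand setting. Columns were matched to the 12 libraries by label. Tests ran in edgeR 4.0.16 under R 4.3.3 (filterByExpr by group with a minimum count of 10 and a minimum total of 15, TMM, robust quasi-likelihood fit over all 12 libraries, glmQLFTest). P-values were adjusted by Benjamini-Hochberg over 15246 genes, with a threshold of 0.05. The script was tested on simulated data. DESeq2 1.42.0 and limma 3.58.1 were alternatives, with other scaling, no filter, only the 8 libraries compared, the replicate number as a block, the summed pair and each library left out. Ratios are log2 of counts plus 0.5, with exact permutation tests over 70 labellings. CPM per kilobase uses GENCODE exon lengths of GRCm38. All 9 genes are named; of the other lists, at most 4 called members with the smallest p, besides genes in the figure and 2 uncalled integrin subunits named after their values were seen. The members and lists were chosen with earlier results of these data known. Upstream sequences come from RefSeq. A gene of these lists is not reported here.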

Additional observations from a re-analysis of the deposited data

Results flagged for a closer look

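Among 45 groups of 4 libraries checked, 27 of gene levels and 18 of ratios, 2 held a library far from the other 3 by Dixon's criterion, which chance gives in about 1 of 20 groups. Lama3 had 99.3 CPM in compression replicate 4, against 71.2 to 75.8 CPM in the other compression libraries. The log2 ratio of Lama4 to Lama5 was 0.21 in Day 0 replicate 1, against -0.048 to -0.0077 in the other Day 0 libraries.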

How the results depend on the processing

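Lama1, Lamb3 and Nid2 were called against Day 0 in both Day 2 groups, and Lama5 in control against Day 0, under every setting run, with the same direction. Between compression and control, the number of the 9 genes called was 0 except with limma-voom, which called 2. The number of all genes called there was 69 with DESeq2, 1958 with limma-voom, 4 with only the 8 libraries compared, 10 with the pair summed and control replicate 4 left out (added after the data were seen), and 0 to 53 with 1 library left out, the highest without control replicate 4. limma-voom called 7 of the 45 other basement membrane genes there, beside 1958 of all 15246 genes. The cause was not tested. With 1 library left out, the 9 genes gave 3 to 6 calls in compression and 4 to 6 in control against Day 0. Over all genes these fits gave 6555 to 7634 calls in compression and 5438 to 6495 in control against Day 0. Fold changes near 0 between compression and control turned sign: Lama3 to 0.0033 without a filter, 0.0046 with the 8 libraries, 0.027 with the pair summed, 0.11 with the pair summed and control replicate 4 left out, and -0.12 to 0.12 with 1 library left out; Lama4 to -0.0044 with limma-voom and -0.014 to 0.089 with 1 left out; Nid1 to 0.031 with limma-voom and -0.025 to 0.030 with 1 left out. With 1 library left out Lamb1 ranged from -0.044 to 0.069 in control against Day 0, and Lamc1 from -0.0073 to 0.18 in compression against Day 0.

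Correlations of same-numbered deviations from the group means were weak, from -0.18 to 0.17, and all positive (0.049 to 0.11) for control against Day 0. Differently numbered libraries were not compared, so a pairing by replicate number was neither shown nor excluded. With the replicate block in edgeR, 0 of the 9 were called between compression and control (Lama3 at 0.016). Against Day 0, 5 were called in control and 4 in compression, Lama3 being added (adjusted p = 0.0474 and 0.0366). Of the 45 others, 0, 23 and 26 were called in these comparisons, in that order. Of all 15246 genes, 0, 6569 and 7895 were called with the block, in the same order. Within replicate numbers, the exact permutation test of a ratio cannot go below 0.125. Depth limits Lama1 most, with 194 to 377 reads in each Day 2 library.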
